A study of Rattus norvegicus with 12 samples.

Results

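The genes described here are the proteasome genes of the array, taken as every gene whose symbol starts with Psma, Psmb, Psmc, Psmd, Psme or Psmg followed by a digit. They numbered 49 of the 22926 genes tested. A probe was kept where the scanner software called it well above background on 4 or more of the 12 arrays, and all 49 genes met this. For 48 of them the call held on each of the 12 arrays, and for Psma8 on 6. The 49 symbols were carried by 57 probes, and where a gene had several probes the one with the highest mean signal stood for it. The rule uses names, the background filter and probe brightness, and no difference between groups. It was set with earlier results of these data known. By its known function Psmc3ip is a recombination factor that shares only its first letters with the family, and Psma3l is listed by RefSeq as another name of Psma3, so both are counted here but bear on the complex only as a name match and as a further probe of the same gene.

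RNA from the calvaria, the flat bone of the skull vault, of rats 10 weeks old was measured 6 h after surgery, with 4 samples in each of 3 groups and 1 array per sample. In the laser group a rectangular defect of 8 by 3 mm was ablated with an Er:YAG laser in 3 strokes, in the bur group the defect was drilled with a rotating bur, and in the control group the periosteum was taken off and the bone was not ablated. The labels also call the control bone non-treated. The strain and sex of the animals are not given in the sources used here, nor whether each sample came from its own animal, so p-values reflect variation among these samples alone, which may be technical.

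The proteasome is the large protease that degrades proteins marked with ubiquitin. Its core particle (20S) is a barrel of alpha rings, which gate the entrance, and beta rings, of which Psmb5, Psmb6 and Psmb7 carry the active sites. Cells exposed to interferon, and many leukocytes, replace these standard catalytic subunits with the immune subunits Psmb8, Psmb9 and Psmb10 to form the immunoproteasome, which favours peptides suited to antigen presentation. The regulatory particle (19S) holds a ring of ATPases, which unfold the substrate, and non-ATPase subunits, which bind ubiquitin and remove it. Other activators can cap the core in place of the regulatory particle, and dedicated chaperones assemble the parts.

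The sequence near the start of each catalytic subunit gene is shown because the immune subunits are compared with the standard ones in the values that follow, and because the 6 genes differ in the short motifs they hold there. The sequences are RefSeq's for the rat assembly GRCr8 and run 5′ to 3′ on the strand of the gene, from 150 bases before the start. Those of Psmb8, Psmb10, Psmb5 and Psmb7 (156 bases each) take in the first 6 bases from the start on. Those of Psmb9 (132 bases) and Psmb6 (144 bases) end before it. Capitals mark matches, on either strand, to any of 4 motifs. These are 2 GAAA blocks set 2 bases apart, the core of the interferon-stimulated response element, TTCNNNGAA, the core of the gamma-activated site, TGACNNNGC, the core of the antioxidant response element that Nfe2l1 and Nfe2l2 bind, and CCGGAA, the core that ETS factors bind. The stretches lie on the minus strand at chr20:4657026-4657181 for Psmb8, the plus strand at chr20:4668850-4668981 for Psmb9, the minus strand at chr19:50743287-50743442 for Psmb10, the minus strand at chr15:32047374-32047529 for Psmb5, the plus strand at chr10:55737738-55737881 for Psmb6 and the minus strand at chr3:42827465-42827620 for Psmb7.
Psmb8: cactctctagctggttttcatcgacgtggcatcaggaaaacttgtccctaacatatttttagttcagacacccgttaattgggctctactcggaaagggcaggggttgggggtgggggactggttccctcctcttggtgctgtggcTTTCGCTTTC
Psmb9: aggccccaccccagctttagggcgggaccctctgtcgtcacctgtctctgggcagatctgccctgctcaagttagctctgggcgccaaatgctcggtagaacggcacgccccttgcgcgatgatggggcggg
Psmb10: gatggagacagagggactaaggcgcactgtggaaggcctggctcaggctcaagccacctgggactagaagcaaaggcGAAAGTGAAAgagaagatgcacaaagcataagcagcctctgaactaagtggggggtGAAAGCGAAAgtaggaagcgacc
Psmb5: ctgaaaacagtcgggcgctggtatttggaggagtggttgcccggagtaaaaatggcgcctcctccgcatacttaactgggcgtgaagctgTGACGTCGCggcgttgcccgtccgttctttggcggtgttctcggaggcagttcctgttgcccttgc
Psmb6: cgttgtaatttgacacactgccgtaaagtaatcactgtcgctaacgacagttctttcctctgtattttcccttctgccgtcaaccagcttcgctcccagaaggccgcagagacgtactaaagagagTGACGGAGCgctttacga
Psmb7: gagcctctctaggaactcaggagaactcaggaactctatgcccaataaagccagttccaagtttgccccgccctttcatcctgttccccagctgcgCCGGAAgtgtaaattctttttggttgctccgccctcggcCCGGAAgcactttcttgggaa
Among the immune subunits, Psmb10 held the interferon-stimulated core at 2 places and Psmb8 held it across its start, in the reverse orientation. Psmb9 held none of the 4 motifs in its window of 250 bases before to 50 after the start, and Psmb8 held TTCNNNGAA farther upstream than the part shown. Among the standard subunits, Psmb5 and Psmb6 held TGACNNNGC and Psmb7 held only CCGGAA, at 2 places.

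A promoter entry was found for 43 of the 49 members. In the full window the interferon-stimulated core was held by 7 of the 43, namely Psma4, Psmb3, Psmb8, Psmb10, Psmd7, Psme2 and Psmg4, and by 3.92% of all 33469 promoters of the table. The motif TGACNNNGC was held by 8 members, Psma3, Psmb2, Psmb5, Psmb6, Psmd1, Psmd3, Psmd9 and Psme4, and by 12.1% of all promoters. TTCNNNGAA was held by 4 members and 8.87% of all promoters, and CCGGAA by 22 members and 15% of all promoters. The motifs overlap no other of the 4 in the stretches shown. A match describes letters only, and an absent match says nothing about the factor.

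Array values are given as log2 signal minus the 75th percentile of the array, so 0 is that percentile itself and a difference of 1 is a 2-fold change. Values of different probes are not on a common scale, and brightness was used only to choose among a gene's probes and to sort probes into quintiles. On each array 67.8% to 73.7% of spots were well above background and none was saturated, and the number of arrays limits the precision. The 4 control arrays lay on 1 slide (slide 2) and were scanned together, while slides 1 and 3 each carried 2 arrays of either treatment. The mean log2 processed signal of the spike-in spots, before scaling, was 8.37 on treated and 5.16 on control arrays. In every comparison with control, treatment therefore cannot be told apart from slide and scan, and the same control arrays serve both comparisons. Over all genes the median log2 difference from control was 0.21 for laser and 0.23 for bur. Markers of bone-forming cells were higher in treated bone (8 of 8 after laser, 7 of 8 after bur) and those of leukocytes lower (8 and 9 of 10), of proliferation lower (6 and 6 of 6), of erythroid cells lower (5 and 5 of 7) and of neural cells lower (4 and 4 of 6), while 0 of 5 skeletal muscle genes passed in either comparison. The mean of these 5 genes was -1.52, 3.72, -3.05 and 2.04 on control replicates 1 to 4 and between -3.11 and -0.26 on the treated arrays, so control replicates 2 and 4 stood apart. In these bulk samples fewer cells of a type and less RNA per cell cannot be told apart. The part of these shifts in the results on the proteasome genes was not tested.

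The comparison of laser with control asks how the proteasome genes stood 6 h after ablation. Of the 49 genes, 10 were higher and 9 lower after laser at an adjusted p under 0.05 (limma, Benjamini-Hochberg over all genes), which is 20.4% and 18.4% of them. Among all genes tested, 32.2% were higher and 17.6% lower, 49.8% in either direction. Without adjustment 26 members had p under 0.05, against 57.2% of all genes. The family did not move as 1 block: its median log2 difference was 0.14 and single genes ranged from -0.84 to 1.67. The genes that rose were Psma2, Psma3l, Psmb2, Psmb6, Psmb11, Psmd1, Psmd2, Psmd10, Psmg2 and Psmg4. Those that fell were Psmb7, Psmb9, Psmc3ip, Psmc4, Psmd5, Psmd9, Psmd13, Psmd14 and Psme3.

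After bur drilling 8 of the 49 genes were higher and 12 lower than control, 16.3% and 24.5%, where 32.7% and 18.3% of all genes passed in these directions and 51% in either. Without adjustment 25 members had p under 0.05, against 58.3% of all genes. The median over the 49 was 0.02 and the range -1.23 to 1.74. Psma2, Psma4, Psmb2, Psmb6, Psmb11, Psmd1, Psmd2 and Psmg4 rose. Psma1, Psmb7, Psmb9, Psmc3ip, Psmc4, Psmd3, Psmd5, Psmd8, Psmd9, Psmd13, Psmd14 and Psme3 fell. No member passed in one direction after laser and the other after bur, but both comparisons use the same controls.

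Without control replicates 2 and 4, the arrays with high muscle genes, 6 members were higher and 4 lower after laser and 2 and 7 after bur, where 4536 of all genes were higher and 2207 lower after laser and 4229 and 2317 after bur. This alternative was chosen after the data were seen, and it leaves 2 control arrays. The members that still passed after laser were Psma2, Psma3l, Psmb2, Psmd2, Psmg2 and Psmg4 as higher and Psmb9, Psmc3ip, Psmd14 and Psme3 as lower. After bur they were Psma2 and Psmg4 as higher and Psmb7, Psmc3ip, Psmd5, Psmd9, Psmd13, Psmd14 and Psme3 as lower. The part of muscle in the other calls was not tested.

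The split between higher and lower rests on the scaling. With quantile normalization 5 members were higher and 17 lower after laser and 4 and 18 after bur, with cyclic loess 4 and 18, and 3 and 19, and with the authors' deposited normalized values 7 and 15, and 4 and 19. Of all 22926 genes, 6119 were higher and 4756 lower after laser with quantile normalization, and 6000 and 4971 after bur. With cyclic loess these were 5156 and 5735, and 5164 and 5664. In the authors' values they were 5865 and 4322, and 5482 and 4668, of 21913 genes. With median centring the member counts were 3 and 8, and 2 and 13, with the percentile taken only over probes detected on every array 7 and 12, and 7 and 14, and with normexp background correction 11 and 8, and 12 and 9. Over all genes the counts were 5854 and 4239, and 5186 and 4874, with median centring. With the percentile over detected probes they were 6208 and 4995, and 6444 and 4850, and with normexp 4993 and 3952, and 4842 and 4546. These settings also moved the median of all genes, from 0.21 to between -0.02 and 0.10 after laser. Relative to that median the members' median was lower by 0.07 after laser and by 0.21 after bur. With normexp it was higher by 0.15 and 0.08, and after laser also without the filter (0.05) and with the mean of a gene's probes (0.03). After laser it was lower by 0.17 with quantile normalization, by 0.18 with cyclic loess, by 0.24 in the authors' deposited normalized values and by 0.01 without laser replicate 1 or control replicate 2. Over all genes the share of called genes that were higher was 64.7% after laser and 64.2% after bur, and with cyclic loess 47.3% and 47.7%. The authors' deposited table of comparisons lists 7 members higher and 16 lower after laser and 4 and 19 after bur, of 48 probes.

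**Figure D1:**
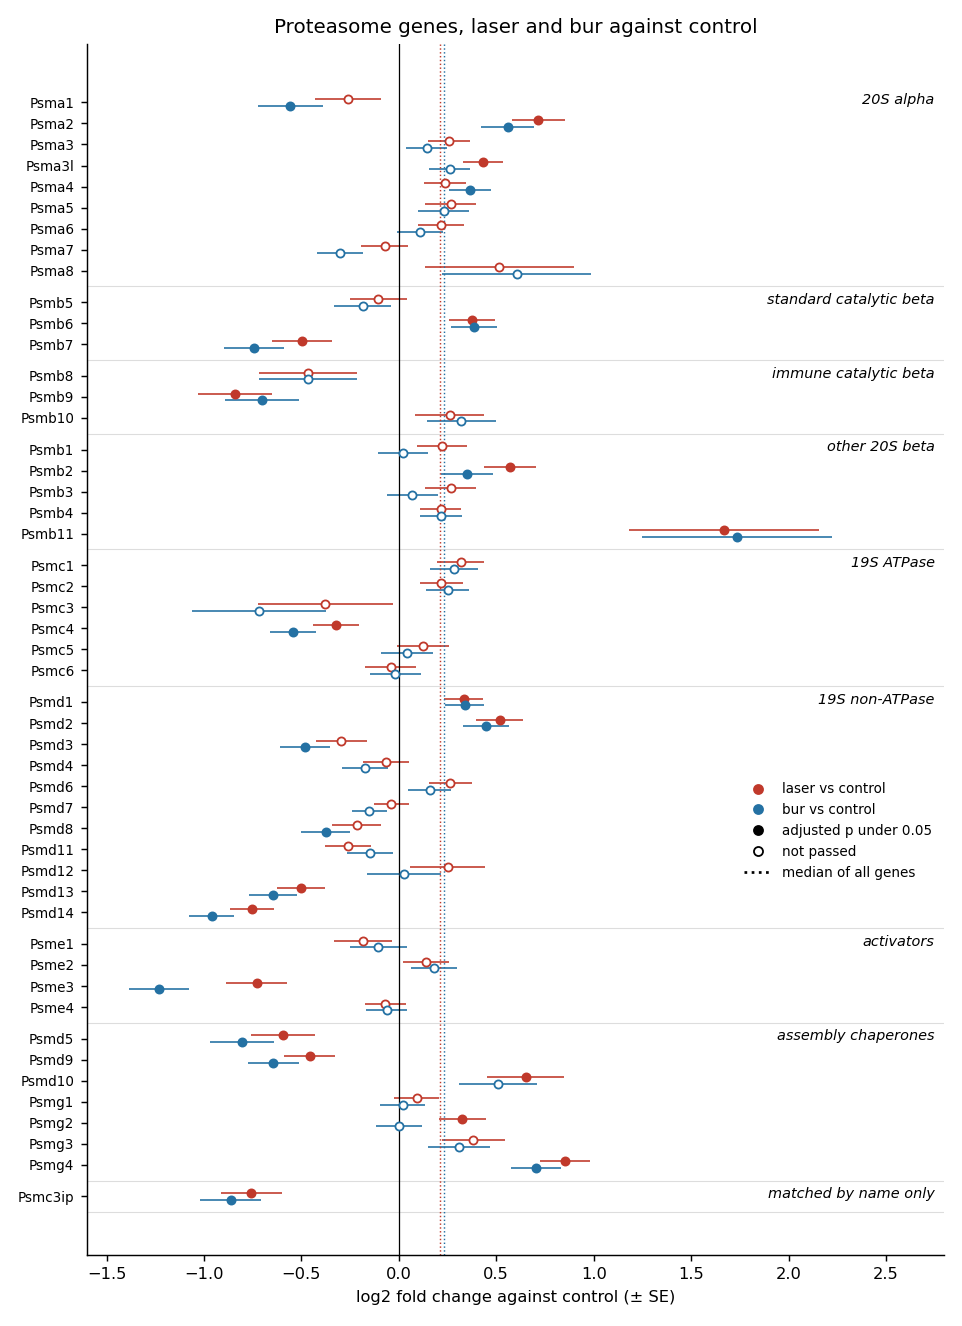
Log2 fold change against control (x axis, point ± limma standard error, 4 arrays per group) of the 49 genes, ordered by role, for laser (red) and bur (blue). Filled points passed the adjusted p of 0.05, dotted lines are the medians of all genes (0.21 for laser, 0.23 for bur), and most roles have genes on both sides of 0, with values from Psme3 at -1.23 to Psmb11 at 1.74 after bur.

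The alpha subunits form the gate of the core particle. Of 9 alpha entries 2 rose and 0 fell after laser and 2 rose and 1 fell after bur, with medians of 0.26 and 0.23. Counts for this and each later role stand beside 32.2% higher and 17.6% lower of all genes after laser. After bur these shares were 32.7% and 18.3%. Psma2 had the largest difference of the alpha entries that rose. Its values were 2.10, 2.38, 2.28 and 2.32 in control, 3.11, 3.09, 3.12 and 2.62 after laser and 2.67, 2.95, 2.85 and 2.84 after bur. Every treated array was above every control array, and laser replicate 4 lay closest to the controls. The log2 difference was 0.72 (SE 0.14, adjusted p = 0.00187) for laser and 0.56 (adjusted p = 0.00664) for bur, and the bur call was lost under median centring. Psma1 went the other way, at -0.56 after bur (SE 0.17, adjusted p = 0.0184) and -0.26 after laser (adjusted p = 0.215). Its bur call was lost without control replicate 2 (-0.51) or control replicate 4 (-0.49), with normexp (-0.39) and with the treated arrays of slide 3 alone (-0.39). Psma4 rose by 0.37 after bur (adjusted p = 0.0153), with 0.24 after laser (adjusted p = 0.0843).

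Both probes filed under Psma3 and its other name Psma3l had higher means in treated bone. The Psma3l probe was 0.43 above control after laser (SE 0.10, adjusted p = 0.00626) and 0.26 after bur (adjusted p = 0.0562), and the Psma3 probe 0.26 and 0.14 (adjusted p = 0.0675 and 0.281). Psma8, the alpha subunit known from testis, was at -4.40 or below in control bone and gave no call.

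The active sites of the standard core sit on Psmb5, Psmb6 and Psmb7, which have chymotrypsin-like, caspase-like and trypsin-like activity, and these genes did not share a direction. Psmb6 rose by 0.38 after laser (SE 0.12, adjusted p = 0.0228) and 0.39 after bur (adjusted p = 0.02). Its values were 3.84, 3.94, 3.98 and 3.70 in control, 4.17, 4.13, 4.48 and 4.19 after laser and 4.13, 4.20, 4.31 and 4.36 after bur, so that treated and control arrays did not overlap. Psmb7 fell by 0.50 after laser (SE 0.15, adjusted p = 0.0197) and by 0.74 after bur (adjusted p = 0.00276). Its values were 2.11, 2.56, 2.18 and 2.39 in control, 1.78, 1.81, 2.15 and 1.51 after laser and 1.53, 1.52, 1.49 and 1.72 after bur. The bur arrays all lay below the controls, while laser replicate 3 reached into their range. Psmb5 had means of 4.34 in control, 4.23 after laser and 4.15 after bur, with overlapping arrays (adjusted p = 0.564 and 0.301). Under other scalings Psmb5 passed as lower in both comparisons, at -0.36 and -0.39 with quantile normalization, -0.44 and -0.47 with cyclic loess and -0.47 and -0.52 in the authors' deposited normalized values. The laser call of Psmb6 was lost without laser replicate 3 or control replicate 4 and its bur call without bur replicate 4 or control replicate 4, at 0.30 in the smallest of the laser fits and 0.33 in the smallest of the bur fits. The laser call of Psmb7 was lost without control replicate 2, at -0.41, and with the treated arrays of slide 3 alone, at -0.48.

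Among the immune subunits Psmb9 alone passed the test with the 75th percentile scaling and the brightest probe of each gene, and it fell. Its probe lies at chr20:4806341-4806400 on the array's build, rn4, which is the build of all probe positions given here. Psmb9 read 2.81, 2.93, 2.87 and 2.96 in control, 1.77, 2.07, 2.25 and 2.13 after laser and 2.16, 1.72, 2.72 and 2.18 after bur. Every treated array was below every control array, with bur replicate 3 nearest to them. The fall was 1.79-fold after laser (log2 -0.84, SE 0.19, adjusted p = 0.00448) and 1.63-fold after bur (log2 -0.70, adjusted p = 0.011). The bur difference was -0.44 with the treated arrays of slide 3 alone and -0.50 with normexp, and did not pass in either.

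Psmb8 was measured by 2 probes that differed in size. The brighter one, at chr20:4786260-4786319, read 3.33, 3.55, 3.50 and 3.42 in control, 2.44, 3.18, 3.09 and 3.23 after laser and 2.72, 2.61, 3.75 and 2.84 after bur. Laser arrays lay below the controls and bur replicate 3 above them, and neither log2 difference passed (-0.46 and -0.47, SE 0.25, adjusted p = 0.144 and 0.138). Without bur replicate 3 the bur difference was -0.72 and passed. Psmb8 also passed as lower in both comparisons with quantile normalization (-0.68 and -0.66), cyclic loess (-0.73 and -0.70), the authors' deposited normalized values (-0.75 and -0.73), the mean of its probes (-0.87 and -0.95) and the treated arrays of slide 1 alone (-0.64 and -0.78). The dimmer probe, between 4787006 and 4787484 of chr20, read 1.87, 2.11, 2.00 and 1.92 in control, 0.04, 0.76, 1.07 and 0.89 after laser and 0.20, 0.04, 1.40 and 0.49 after bur. There every treated array lay below every control array, and in a fit of all probes the differences were -1.28 and -1.44 (SE 0.29, adjusted p = 0.00479 and 0.0026).

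Psmb10 did not pass in either comparison. It read 4.14, 4.20, 4.19 and 4.11 in control, 4.16, 4.45, 4.65 and 4.42 after laser and 4.10, 4.22, 4.84 and 4.75 after bur. The bur arrays fell into slide 1 (4.10 and 4.22) within or near the control range and slide 3 (4.84 and 4.75) above it. The log2 differences were 0.26 and 0.32 (SE 0.18, adjusted p = 0.234 and 0.148). The direction rests on the scaling, with 0.01 and 0.11 under quantile normalization, -0.08 and 0.03 under cyclic loess and -0.11 and 0.02 in the authors' deposited normalized values for Psmb10. With the treated arrays of slide 3 alone the bur difference of Psmb10 was 0.64 and passed (adjusted p = 0.011).

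**Figure D2:**
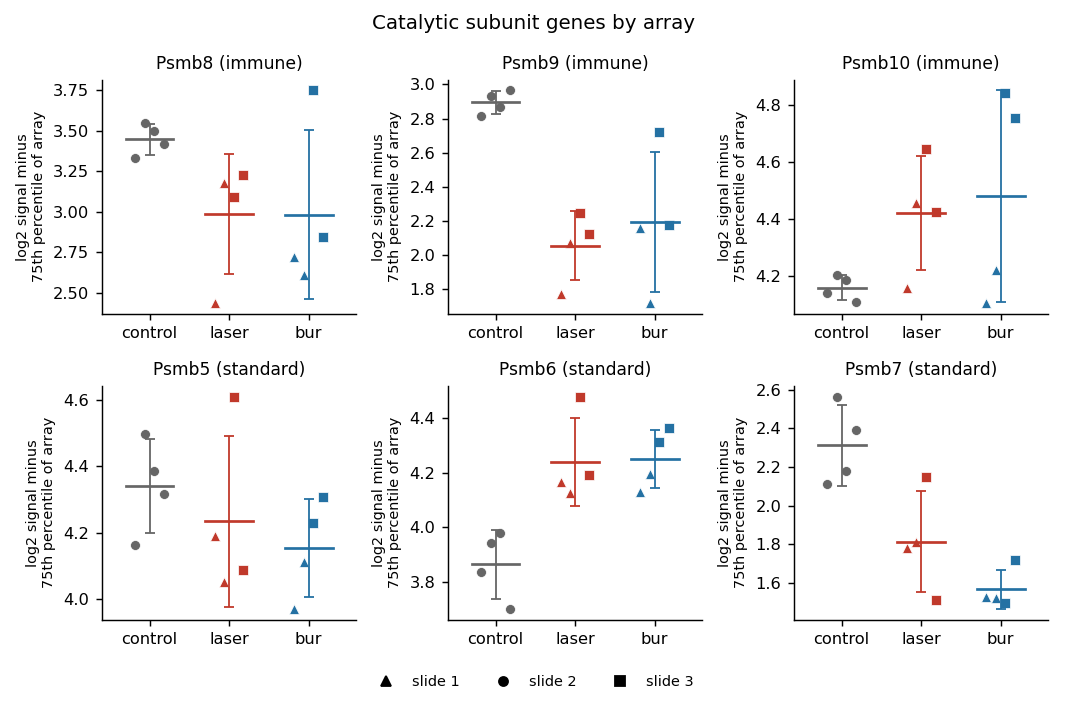
Log2 signal minus the 75th percentile of the array (y axis, each panel on its own range) for the immune (top) and standard (bottom) catalytic subunit genes on each of the 12 arrays, with the group mean and SD as line and bar and the slide as marker shape. Psmb9 and Psmb6 show control arrays apart from all treated arrays in opposite directions, and Psmb10 of the bur group splits by slide.

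Each immune subunit takes the place of 1 standard subunit, so the log2 ratio of the 2 was taken within each array. This removes a scaling that is equal for all probes of an array, but not one that depends on signal. The level of such a ratio depends on both probes, and only its differences between groups were read. Psmb9 over Psmb6 was -0.97 ± 0.16 in control, -2.19 ± 0.16 after laser and -2.06 ± 0.37 after bur (SD, n = 4), a difference of -1.22 (SE 0.11) and -1.09 (SE 0.20). Control and treated arrays did not overlap, the exact two-sided permutation p was 0.0286 for both, the smallest that 4 against 4 arrays allow, and the Benjamini-Hochberg value over the 9 ratio tests was 0.0643. Psmb10 over Psmb7 moved in the opposite direction, from 1.85 ± 0.20 in control to 2.61 ± 0.23 after laser and 2.91 ± 0.35 after bur, a difference of 0.76 and 1.07 with the same exact permutation p of 0.0286 and adjusted 0.0643. Thus neither ratio passed 0.05 after adjustment. Both already had the smallest exact p, so larger differences in them could not have lowered their adjusted values. Psmb8 over Psmb5 was -0.89 ± 0.05 in control, -1.25 ± 0.46 after laser and -1.17 ± 0.48 after bur, with overlapping arrays (exact permutation p = 0.314 and 0.286). With the dimmer Psmb8 probe, an alternative chosen after the data were seen, the difference was -1.18 and -1.26 without overlap (exact permutation p = 0.0286, adjusted 0.0429). This exact p equals that of the other 2 ratios. The adjusted value is below 0.0643 only because more of the 9 tests then reach the smallest p, so it does not rank Psmb8 over Psmb5 above them. No difference between laser and bur passed in the 3 ratios (the smallest exact permutation p was 0.2).

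The ratio differences from control had 1 direction on both treated slides. For Psmb9 over Psmb6 they were -1.25 on slide 1 and -1.18 on slide 3 after laser and -1.26 and -0.92 after bur. For Psmb10 over Psmb7 they were 0.66 and 0.86 after laser and 0.79 and 1.34 after bur. For Psmb8 over Psmb5 they were -0.42 and -0.30 after laser and -0.48 and -0.08 after bur. Against control replicates 1 and 3 alone, Psmb9 over Psmb6 differed by -1.12 and -0.99, Psmb10 over Psmb7 by 0.59 and 0.89 and Psmb8 over Psmb5 by -0.39 and -0.31, with no test. Without control replicate 4 the bur difference of Psmb9 over Psmb6 was -1.01 with an exact permutation p of 0.0571, and the laser difference of Psmb10 over Psmb7 was 0.55 with the same p in the authors' deposited normalized values.

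**Figure D3:**
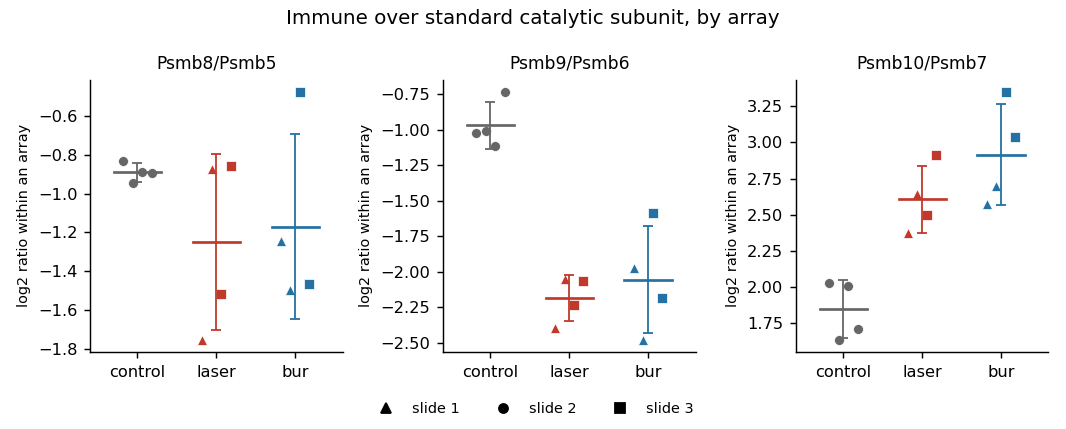
Log2 ratio of each immune catalytic subunit over the standard subunit it replaces (y axis, each panel on its own range), with 1 point per array, group mean and SD, and marker shape for the slide. All treated arrays lie below control for Psmb9 over Psmb6 and above control for Psmb10 over Psmb7, while the groups overlap for Psmb8 over Psmb5.

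Psmb8 and Psmb9 lie beside Tap1 and Tap2, the peptide transporter genes, in the class II region of the rat major histocompatibility complex, and the 4 are neighbours in RefSeq's order. Tap1 fell by 2.19 after laser and by 2.12 after bur in log2 signal (SE 0.28, adjusted p = 0.000251 and 0.000337), from -0.41 ± 0.24 in control to -2.60 ± 0.33 and -2.52 ± 0.60. Tap2 fell by 1.94 and 2.06 (adjusted p = 0.000291 and 0.000273). All 4 control arrays lay above all 8 treated arrays for Tap1. Of the list of 10 interferon and antigen processing genes outside the proteasome, 2 rose and 4 fell after laser and 1 rose and 3 fell after bur, with medians of -0.11 and 0.06. The shares of all genes were 32.2% higher and 17.6% lower after laser, and 32.7% and 18.3% after bur. Tapbp, which loads peptides with the transporter, fell by 0.83 and 0.78. B2m, the light chain of class I molecules, was at -0.12 and -0.08 without passing. Irf1, an interferon-induced transcription factor, rose by 0.46 after bur (adjusted p = 0.0264) and was at 0.11 after laser. Ubd, a ubiquitin-like modifier that targets proteins to the proteasome, rose by 1.11 after laser (adjusted p = 0.00108), with 0.49 after bur (adjusted p = 0.0501). Nlrc5, a transactivator of class I genes, fell by 0.89 after laser (adjusted p = 0.0163), with -0.63 after bur.

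Many leukocytes hold the immunoproteasome without stimulation. The mean of the 10 leukocyte markers ran from 3.49 to 3.74 on the control arrays, from 1.64 to 2.89 on the laser arrays and from 1.95 to 3.17 on the bur arrays, and all 10 were well above background on all 12 arrays. Of these 10, 8 fell after laser and 9 after bur, with medians of -1.14 and -1.11. Their part in the lower Psmb9, Tap1 and Tap2 was not tested.

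The remaining beta subunits build the rings without an active site of their own, apart from Psmb11, the catalytic subunit known from the thymus. Of the 5, 2 rose and 0 fell after laser and likewise after bur. Psmb2 rose by 0.57 after laser (SE 0.13, adjusted p = 0.00554) and by 0.35 after bur (adjusted p = 0.0465), and of the 12 fits that left out 1 array the bur call was kept only without bur replicate 1, control replicate 2, laser replicate 3 or laser replicate 4, with differences between 0.31 and 0.41 over the 12. Of the 17 other settings 5 kept the bur call of Psmb2. Psmb1, Psmb3 and Psmb4 had differences between 0.02 and 0.27 and did not pass. Psmb11 had the largest difference from control of all members, 1.67 after laser (SE 0.49, adjusted p = 0.0162) and 1.74 after bur (adjusted p = 0.0133), at a dim probe. It read -4.01, -3.84, -4.23 and -4.05 in control, -1.64, -1.35, -3.38 and -3.09 after laser and -1.55, -1.66, -2.84 and -3.14 after bur. Each treated group split by slide, the arrays of slide 1 being the brighter, and the difference was 2.54 on slide 1 and 0.80 on slide 3 after laser and 2.42 and 1.05 after bur. With normexp background correction it was 0.47 and 0.41 and did not pass.

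The ATPases form the unfolding motor of the regulatory particle. Of the 6, 0 rose and 1 fell in each comparison with control, and the medians were 0.04 and 0.01. The gene that fell was Psmc4, by 0.32 after laser (SE 0.12, adjusted p = 0.0407) and by 0.54 after bur (adjusted p = 0.00373). It read 2.12, 2.43, 2.18 and 2.26 in control, 1.96, 1.84, 2.11 and 1.79 after laser and 1.61, 1.60, 1.79 and 1.82 after bur. All treated arrays lay below the controls, laser replicate 3 only just, and the laser call was lost without laser replicate 1, 2 or 4 or control replicate 2, 3 or 4, with differences between -0.39 and -0.26 over the 12 fits that left out 1 array. This laser call was kept in 8 of the 17 other settings, and lost among others with median centring, normexp and either treated slide alone. Psmc1 was 0.32 and 0.28 above control without passing, at adjusted p = 0.0506 and 0.0732. Psmc3 had a low value in laser replicate 1 (1.63, the others 2.57 to 3.02) and in bur replicate 1 (1.18, the others 2.27 to 2.68). Its log2 differences were -0.38 after laser and -0.72 after bur, and did not pass. All bur arrays lay below the controls (2.72 to 2.94), while laser arrays overlapped them. In the authors' deposited table of comparisons Psmc3 was lower, at -0.68 after laser (adjusted p = 0.0323) and -1.01 after bur (adjusted p = 0.00562).

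Among the 11 non-ATPase subunits of the regulatory particle 2 rose and 2 fell after laser and 2 rose and 4 fell after bur, with medians of -0.06 and -0.15. The 2 that rose were its large scaffold subunits, Psmd1, at 0.33 and 0.34 (SE 0.10, adjusted p = 0.0176 and 0.0162), and Psmd2, at 0.52 and 0.45 (SE 0.12, adjusted p = 0.00496 and 0.00998). The laser call of Psmd1 was lost without control replicate 4, at 0.30. Both calls rest on the scaling: they were lost in both comparisons under quantile normalization, median centring, cyclic loess and the authors' deposited normalized values, and Psmd1 turned to -0.06 and -0.01 after laser under cyclic loess and in the authors' values. The same 4 settings ended the calls of Psmb6 and Psmb2 in both comparisons, of Psma3l after laser and of Psma4 after bur.

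Other members of this particle fell. Psmd14, the metalloprotease that cuts ubiquitin chains off the substrate, read 1.17, 1.38, 1.31 and 1.18 in control, 0.33, 0.57, 0.64 and 0.48 after laser and 0.31, 0.19, 0.46 and 0.23 after bur. Treated and control arrays were far apart. It was 1.69-fold lower after laser (log2 -0.75, SE 0.11, adjusted p = 0.00056) and 1.95-fold lower after bur (log2 -0.96, adjusted p = 0.00023). Psmd13 fell by 0.50 and 0.65 (SE 0.12, adjusted p = 0.00684 and 0.00191). The calls of Psmd13 and Psmd14 were kept in all 17 other settings and in all 12 fits that left out 1 array, in both comparisons, except that the laser call of Psmd13 was lost without control replicates 2 and 4. Psmd3 and Psmd8 fell after bur by 0.48 and 0.38 (adjusted p = 0.0108 and 0.0282), with -0.29 and -0.22 after laser (adjusted p = 0.0794 and 0.168). The bur call of Psmd8 was lost without bur replicate 1 or 2 or control replicate 2, 3 or 4, with -0.31 without control replicate 2. The bur calls of both were lost with the treated arrays of slide 3 alone. That of Psmd8 was also lost with those of slide 1 alone (-0.44, adjusted p = 0.0539 in limma). It was lost too with slide as a block, with normexp and without the filter on dim probes. Psmd4, a ubiquitin receptor, was at -0.06 and -0.17 without passing. In the authors' deposited table of comparisons Psmd4 was lower, at -0.38 after laser (adjusted p = 0.00687) and -0.42 after bur (adjusted p = 0.00461). Psmd11 had 2 probes of like brightness that disagreed: the one used gave -0.26 and -0.15 without passing, and the other, at chr10:68710175-68710234, gave 1.29 and 0.90 (SE 0.25, adjusted p = 0.0019 and 0.0113) in the fit of all probes.

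Psme3, the activator that caps the core in the nucleus, fell most among the members after bur. It read 0.66, 0.83, 0.82 and 0.65 in control, -0.07, -0.01, 0.05 and 0.08 after laser and -0.51, -0.95, -0.19 and -0.31 after bur. The 3 groups did not overlap, with laser between control and bur. The fall was 1.66-fold after laser (log2 -0.73, SE 0.16, adjusted p = 0.00332) and 2.35-fold after bur (log2 -1.23, adjusted p = 0.000289), and both calls were kept in all 17 other settings and all 12 fits without 1 array. The probe lies at chr10:90350862-90350921. The other activators did not pass: Psme1 and Psme2, the cap that interferon induces together with the immune subunits, were at -0.18 and 0.14 after laser and -0.10 and 0.18 after bur, and Psme4 at -0.07 and -0.06. In the authors' deposited table of comparisons Psme1 was lower, at -0.52 after laser (adjusted p = 0.00326) and -0.37 after bur (adjusted p = 0.016).

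The assembly chaperones moved in both directions. Of the 7, 3 rose and 2 fell after laser and 1 rose and 2 fell after bur. Psmg4, one of the chaperones that build the alpha ring, read 2.34, 2.46, 2.35 and 2.36 in control, 3.18, 3.07, 3.52 and 3.16 after laser and 2.87, 3.12, 3.08 and 3.25 after bur. All treated arrays were higher, by a log2 difference of 0.85 after laser (SE 0.13, adjusted p = 0.000528) and 0.70 after bur (adjusted p = 0.00148), a call kept in all 17 other settings and 12 fits without 1 array. Psmg1 and Psmg3 did not pass (0.09 and 0.38 after laser, 0.02 and 0.31 after bur). Psmg2 passed after laser at 0.33 (adjusted p = 0.041), a call lost without laser replicate 1, 2 or 3, control replicate 1 or 3 or bur replicate 2 or 4, with differences between 0.25 and 0.39 over the 12 fits, and it was at 0.00 after bur. The laser call of Psmg2 was kept in 7 of the 17 other settings, and lost among others with median centring, cyclic loess and either treated slide alone. Of the chaperones of the ATPase ring, Psmd5 fell by 0.59 and 0.80 (SE 0.16, adjusted p = 0.0124 and 0.0027) and Psmd9 by 0.46 and 0.64 (SE 0.13, adjusted p = 0.0141 and 0.00259). Psmd10, the third of these, rose by 0.65 after laser (SE 0.20, adjusted p = 0.0197), with 0.51 after bur (adjusted p = 0.0521). Its laser call was lost without laser replicate 1, at 0.61. The laser calls of Psmd5 and Psmd9 were lost with the treated arrays of slide 3 alone, at -0.35 and -0.41. Psmc3ip, the name match, fell by 0.76 and 0.86.

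**Figure D4:**
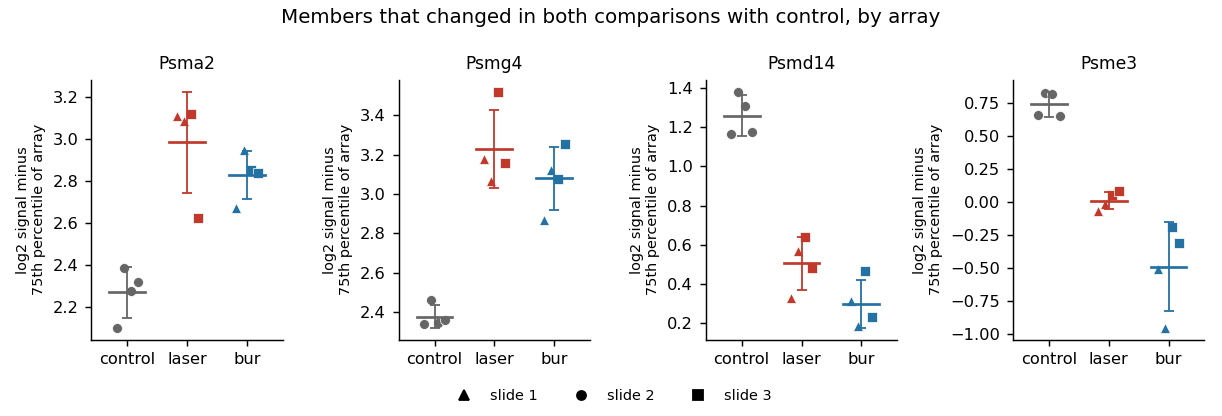
Log2 signal minus the 75th percentile of the array (y axis, each panel on its own range) for an alpha subunit (Psma2), an alpha ring chaperone (Psmg4), the deubiquitinating subunit (Psmd14) and the nuclear activator (Psme3), by array, with group mean and SD and marker shape for the slide. Control arrays stand apart from all 8 treated arrays in each panel, and Psme3 of the bur group (-0.95 to -0.19) lies below the laser group (-0.07 to 0.08).

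Direct comparison of laser with bur asks whether the means of cutting mattered. None of the 49 genes passed in limma, where 1 of all 22926 genes did (0.00436% higher, 0% lower). At an unadjusted p under 0.05 there were 2 members, against 6.51% of all genes, and 0 members passed in the authors' deposited table or in any other setting. The 2 were Psme3, 0.50 higher after laser (SE 0.16, adjusted p = 0.586 in limma), and Psmg2, 0.32 higher (SE 0.12, adjusted p = 0.655). On slide 1 Psme3 averaged -0.04 after laser and -0.73 after bur, and on slide 3 0.07 and -0.25. Thus laser was the higher on both slides, but a difference of this size did not pass among all genes. The median difference over the 49 was 0.11, with 35 values above 0 and 14 below, where the median of all genes was 0.01. Within slides 28 members were higher after laser on both slides, 4 lower on both, and 17 changed sign. Against the median of all genes 34 members lay above and 15 below. Without bur replicate 1, and also with slide 3 alone, these were 28 and 21. The members share their arrays and are no replicates. All 7 assembly chaperones had a positive difference, between 0.07 and 0.32. A p above the threshold does not show that laser and bur acted alike.

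Calls among the members differed between quintiles of probe signal. All genes were split into quintiles by mean signal, and 29 members fell in the brightest and 13 in the next. In the brightest quintile 7 members rose and 1 fell after laser and 7 rose and 2 fell after bur, where 43.8% and 41.9% of all genes of that quintile rose and 12.3% and 14.3% fell. In the next quintile 0 members rose and 6 fell after laser and 0 rose and 8 fell after bur, where 30.2% and 29.2% of all its genes rose and 19.7% and 21.7% fell. The 13 genes thus had medians of -0.29 and -0.48, against 0.12 and 0.12 over all genes of the quintile. Across all 49 members, mean signal and log2 difference had a Pearson r of 0.03 after laser and 0.06 after bur. Across the 47 members other than the dim Psma8 and Psmb11, r was 0.41 and 0.49, values across genes that share their arrays and are no replicates. Under cyclic loess, which removes differences that depend on signal, these were 0.14 and 0.28. The part of signal in the split between higher and lower members was not tested.

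**Figure D5:**
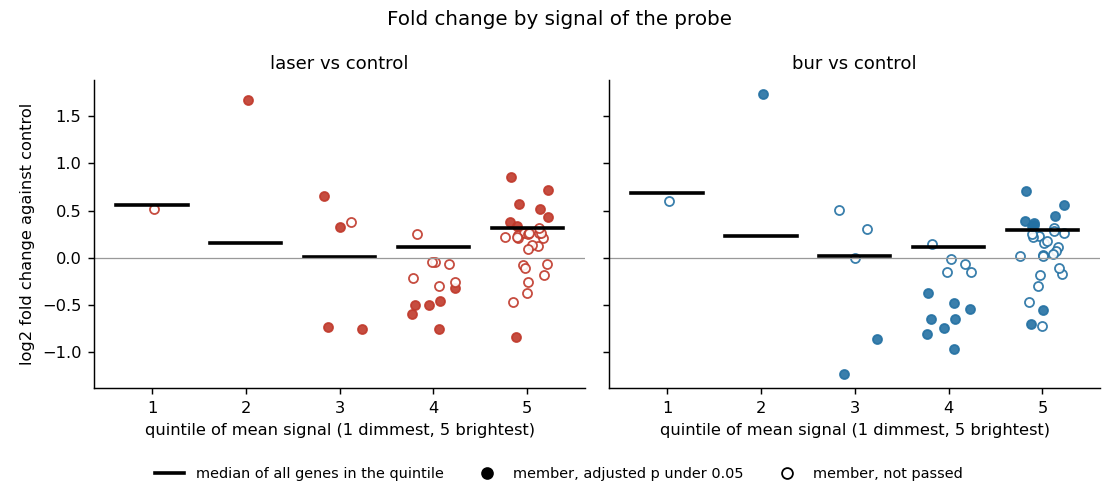
Log2 fold change against control (y axis) of the 49 members in quintiles of mean signal over the 12 arrays (x axis, points spread sideways for view), for laser and bur, with filled points for genes that passed and black bars for the median of all genes in each quintile. The 13 members of quintile 4 lie mostly below the bar of their quintile, while the 29 of quintile 5 lie on both sides of theirs.

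Members also shared deviations of whole arrays. Control replicate 2 was the highest of the 4 controls for 39 of the 49 genes and control replicate 1 the lowest for 30. The mean over the 49 genes was 2.64 and 2.37 on these arrays, and 2.50 and 2.49 on the other controls. Laser replicate 3 was the highest of its group for 30 genes and bur replicate 1 the lowest for 33. Array means ran from 2.47 to 2.67 after laser and from 2.30 to 2.55 after bur, so the group ranges overlapped.

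The next lists hold genes that act on or around the proteasome. Their counts stand beside 32.2% higher and 17.6% lower of all genes after laser, and 32.7% and 18.3% after bur. Of 10 measured proteasome-associated factors 2 rose and 4 fell after laser and 3 rose and 5 fell after bur. Zfand2a, a stress-induced protein that binds the proteasome, read 1.68, 1.74, 2.15 and 2.00 in control, 3.00, 2.94, 3.06 and 3.21 after laser and 2.77, 2.61, 2.66 and 2.72 after bur. The groups did not overlap, and the log2 differences were 1.16 and 0.80 (SE 0.13, adjusted p = 0.000139 and 0.000756). Sem1, a small subunit of the regulatory particle with a name of its own, rose by 0.94 and 0.73 (SE 0.11, adjusted p = 0.000207 and 0.000668). Akirin2, which brings proteasomes into the nucleus, fell by 0.84 and 0.71 (SE 0.12, adjusted p = 0.000503 and 0.00128). The proteasome-bound deubiquitinase Usp14 fell by 0.29 and 0.41 and the core inhibitor Psmf1 by 0.67 and 0.68, while the core maturation factor Pomp was at 0.36 and 0.28 without passing.

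Of 9 genes around Nfe2l1, the transcription factor that raises proteasome genes when the proteasome is impaired, 3 rose and 1 fell in each comparison. Nfe2l1 rose by 0.67 and 0.74 (SE 0.13, adjusted p = 0.00235 and 0.00149) and Nfe2l2, its relative in the oxidative stress response, by 0.72 and 0.51. The bur call of Nfe2l2 was lost with median centring (0.33, adjusted p = 0.154) and cyclic loess (0.29, adjusted p = 0.059). The small Maf partners went apart, Maff rising by 1.72 and 1.68 and Mafk falling by 1.29 and 1.23 (SE 0.20 for each). Ddi2 and Ngly1, the protease and the glycanase that activate Nfe2l1, did not pass. Of the 8 members with TGACNNNGC near the start, 3 rose and 1 fell after laser and 3 rose and 2 fell after bur. Of the 35 without it 5 rose and 7 fell, and 4 rose and 9 fell. Among all genes 32.2% rose and 17.6% fell after laser, and 32.7% and 18.3% after bur. The rises were of Psmb2, Psmb6 and Psmd1, whose calls rest on the scaling. Of the 7 members with the interferon-stimulated core 1 rose and 0 fell, and 2 and 0. For TTCNNNGAA (4 members) these were 0 and 0, and 0 and 1, and for CCGGAA (22) 3 and 5, and 2 and 5. A link between motif and call was not tested.

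Of 15 ubiquitin and shuttle factor genes 6 rose and 4 fell after laser and 6 rose and 3 fell after bur. The ubiquitin gene Ubb rose by 0.76 after laser and by 0.50 after bur, and Rps27a, which encodes ubiquitin fused to a ribosomal protein, by 0.52 and 0.50. The rise of Ubb rests on the scaling, since it read -0.06 and -0.10 in the authors' deposited normalized values. Vcp, the unfoldase that hands substrates to the proteasome, fell by 0.47 and 0.59 (SE 0.09, adjusted p = 0.0023 and 0.000707).

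RefSeq's gene table names 46 pseudogenes after 19 of the members, and the array's probes were not checked for matches to them. For 5 members more than 1 probe was kept, and none of these had probes that passed in opposite directions. Among the probes not used, the other Psmc1 probe was 0.37 above control after laser (SE 0.12, adjusted p = 0.0258 in the fit of all probes), and no other besides those of Psmb8 and Psmd11 passed.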

How the data were processed

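RNA of 12 samples was hybridised to one-colour Agilent arrays of 62976 spots, 1 array per sample. Per the file headers, Agilent Feature Extraction 11.0.1.1 made the deposited intensities, which are background-subtracted processed signals with a call of well above background per spot. The authors' deposited tables add normalized log2 values, with their scaling not given in the sources, and, for their own comparisons, log2 fold changes with p-values. Spots of a probe were averaged over 45598 probes. Each array's log2 signal was centred on its 75th percentile. The 30121 probes that the scanner software called well above background on 4 or more of the 12 arrays were kept and the probe with the highest mean stood for a gene, which left 22926 genes.

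Groups were compared with limma 3.58.1 (R 4.3.3; tables with Python 3.11.15 and pandas 2.3.3) in 1 fit of all 12 arrays, and p-values were adjusted by Benjamini and Hochberg's method across the 22926 genes, 0.05 being the threshold. The fit was tested on simulated data. Ratios within arrays were tested by exact two-sided permutation. Named were all catalytic subunits, in each role group and comparison up to 2 passing members per direction with the largest change (where none passed, the one of lowest p), and up to 3 genes with the smallest adjusted p of each other list, other genes being named after their values were seen, and a few list genes are not reported here. The members and lists were chosen with earlier results of these data known. Alternatives were quantile normalization, other centrings, cyclic loess, normexp (offset 50), the authors' values, other filters, mean of probes, blocks by slide or replicate number, array weights, an intensity trend, single slides, leaving out each array and, added after the data were seen, leaving out control replicates 2 and 4. Promoter sequences came from RefSeq (GRCr8), and protein sequences were not used here.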

Additional observations from a re-analysis of the deposited data

Results flagged for a closer look

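In 4 of the 81 groups of 4 arrays examined, 1 array lay far from the other 3 by Dixon's test. Chance gives about 1 such group in 20. For Psma2, laser replicate 4 read 2.62 and the other laser arrays 3.09 to 3.12. For Psmb7, bur replicate 4 read 1.72 and the others 1.49 to 1.53. For Psmd9, laser replicate 3 read 1.05 and the others 0.81 to 0.85. For Psmg4, control replicate 2 read 2.46 and the others 2.34 to 2.36. In each case the array stayed on its group's side of the difference from control or treated arrays.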

How the results depend on the processing

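Scaling moved the counts most. After laser the members called higher numbered 5 with quantile normalization, 3 with median centring, 4 with cyclic loess, and 6 both with slide as a block and with slide 1 alone, and those called lower 17 with quantile normalization, 18 with cyclic loess, 15 in the authors' deposited values and 5 with slide 3 alone. The median over members after laser was -0.081 with quantile normalization, 0.033 with the percentile over detected probes, 0.034 with median centring, -0.20 with cyclic loess and -0.14 in the authors' values. After bur the higher members numbered 4 with quantile normalization, 2 with median centring, 3 with cyclic loess, 4 in the authors' values and 3 with slide 1 alone, and the lower ones 19 with cyclic loess, 19 in the authors' values and 7 with slide 3 alone. The median after bur was -0.14 with quantile normalization, -0.16 with median centring, -0.20 with cyclic loess and -0.14 in the authors' values. Over all genes 5887 were higher after laser with slide as a block and 7163 with slide 1 alone, and 2591 were lower with slide 3 alone. After bur 6929 were higher with slide 1 alone and 2848 lower with slide 3 alone. Between laser and bur 1 gene of all passed, 5 with normexp, 10 with slide as a block, 2 with an intensity trend, and 0 with the mean of probes, with only the groups compared, with slide 1 or with slide 3 alone. Psmb10 over Psmb7 after laser was 0.55 (exact permutation p = 0.0571) in the authors' values, and Psmb8 over Psmb5 was -0.77 (exact permutation p = 0.0286) with the mean of probes and -1.18 after laser and -1.26 after bur with the other Psmb8 probe. Reversed were Psmd1 after laser (-0.060 with cyclic loess, -0.013 in the authors' values) and Ubb in the authors' values (-0.060 and -0.098). Without control replicates 2 and 4, chosen after the data were seen, 6743 genes in all passed after laser and 6546 after bur, with 6 members higher and 4 lower after laser and 2 and 7 after bur. The cause of these changes was not tested, but that setting has fewer arrays. Over named genes, settings and comparisons 2916 values kept their side of the threshold, 155 lost their call, 57 gained one and 4 called values reversed. Changes of sign in values without a call, as for Psmb10 after laser, are not counted as reversed. The 2916 include laser against bur, where no named gene passed in any setting.

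Leaving out 1 array gave after laser 8 to 11 members higher, 7 to 10 lower, a median of 0.10 to 0.19 and 9164 to 11900 genes in all, after bur 6 to 10, 10 to 13, -0.02 to 0.09 and 9557 to 11838, and between laser and bur 0 members, a median of 0.06 to 0.16 and 0 to 1 gene. The ratio differences ran for Psmb8 over Psmb5 from -0.49 to -0.19 after laser and from -0.51 to -0.17 after bur. At -0.51, without bur replicate 3, the other bur arrays lay below all controls. For Psmb9 over Psmb6 they ran from -1.26 to -1.14 and from -1.24 to -0.95, and for Psmb10 over Psmb7 from 0.66 to 0.84 and from 0.92 to 1.18.

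With the replicate number as a block, 9 members were higher and 8 lower after laser and 8 and 13 after bur, and the laser calls of Psmc4 and Psmg2 and the bur call of Psmb2 were lost. Of all genes 8065 were then higher and 4458 lower after laser, and 8262 and 4623 after bur. The labels do not say what the replicate number marks. The correlations of same-numbered deviations ran from 0.09 to 0.39 for laser and control, 0.10 to 0.26 for bur and control and 0.05 to 0.58 for laser and bur, and 5, 6 and 6 of 8 samples correlated best with their own number, a hint from the data and not the design. Not every correlation was above 0.1, so the samples were treated as sharing only a number. With 4 arrays per group and controls on 1 slide, small differences may go undetected, and treatment cannot be told apart from slide and scan.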
